A study of Mus musculus with 4 samples.

Results

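Genes for a neuronal sodium channel, an ATP receptor channel and a dopamine transporter (Scn9a, P2rx3 and Slc6a3) were examined in cardiac neural crest cells (NCCs) sorted from the outflow tract (OFT) of mouse embryos at E10.5. Scn9a, P2rx3 and Slc6a3 each had 1 probe set that carried its name alone, so that the group is 3 of the 542 genes named in this way and 3 of the 45037 probe sets tested. They were selected on their measured values: names were given only to probe sets that already differed between the genotypes in the submitters' own test of the same 4 arrays. The differences below are therefore a description of these arrays, and no test of them is given. Other probe sets for these genes carry no name here and were not analysed.

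The cells came from Wnt1-Cre;ILK f/f embryos, in which ILK is deleted in the neural crest (NKO mutants), and from control littermates, which the labels call wildtype and the methods give as Wnt1-Cre;ILK f/+. The labels name the mutants by the ILK deletion. Both genotypes carried a lacZ reporter, and cells with β-galactosidase activity were collected by FACS after staining with its substrate FDG. OFTs of one genotype were pooled, cells of several sorts were joined before RNA extraction, and each genotype was measured on 2 Affymetrix arrays that the labels number as biological replicates. Wnt1-Cre marks the whole neural crest lineage, including the peripheral neurons and glia that arise from it, so that the sorted cells need not be of a single type.

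Nerve cells signal through membrane proteins that pass ions or move transmitters. Voltage-gated sodium channels open when the membrane depolarizes and carry the upstroke of the action potential, ligand-gated channels open when a transmitter binds, and transmitter transporters return the transmitter to the cell. Scn9a encodes the pore-forming subunit of a sodium channel of peripheral sensory and sympathetic neurons and is known for its part in pain. P2rx3 encodes a subunit of P2X receptors, cation channels gated by extracellular ATP, which in rodents is found mainly on small sensory neurons. Slc6a3 encodes the plasma membrane dopamine transporter, known from the dopamine neurons of the midbrain. Sensory and autonomic neurons of the trunk derive from the neural crest, while sensory neurons of several cranial ganglia come from placodes instead.

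Upstream sequence is shown for Slc6a3 only, and that of Scn9a and P2rx3 is not reported here. Neurogenic transcription factors of the basic helix-loop-helix family, some of which differed on the same arrays, bind E-boxes, the hexamer CANNTG. This reason to look for E-boxes is not particular to Slc6a3. The 250 bases before the RefSeq start of the gene (GRCm38.p6) were searched on both strands and held 4 E-boxes. Each match is printed 5′ to 3′ on the strand of the gene, with the E-box in capitals.
Slc6a3, chr13:73536497-73536526, plus strand, 247 bases before the start: aacCAACTGtccctccggtctgcaacgcgt
Slc6a3, chr13:73536538-73536567, plus strand, 197 bases before the start: atacactgatccCACGTGgccgagactcta
Slc6a3, chr13:73536570-73536599, plus strand, 165 bases before the start: accttgcaaagaCACCTGccaaactccttg
Slc6a3, chr13:73536636-73536665, plus strand, 99 bases before the start: catcctagtcccCAAGTGgtgcaggggcgc

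The forms differed among the 4 matches, and none was CATCTG or CAGCTG on either strand. An E-box of any form was present in 66.2% of 32851 RefSeq windows of the same length, CACCTG on either strand in 17.2%, and CATCTG and CAGCTG in 4745 and 4271 of the windows. A match describes the letters only.

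The labels were checked first on Ilk itself, whose intensity was 467.7 and 386.7 on the NKO arrays against 809.5 and 800.7 on the control arrays. Its signal was lower in both mutant samples, in the direction of the labels. The position of its probe set within the transcript was not known. The deposited values are normalized intensities on a linear scale, with a median between 75.8 and 79.2 per array. With 2 arrays per genotype, precision is limited by their number.

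Scn9a had the highest ratio of the 3 genes. Its probe set (1442810_x_at) read 58.1 and 52.9 on the NKO arrays against 12.8 and 14.4 on the control arrays. Both mutant samples lay far above both controls, and the arrays of a genotype differed by no more than 1.12-fold. The mean intensity was 13.6 in the controls and 55.5 in the mutants, a ratio of 4.09, and single mutant arrays were between 3.68 and 4.55 times as bright as single control arrays. On the log2(intensity + 16) scale, where 16 was added to every value to damp the noise of dim probe sets, the difference was 1.27 log2 units (standard error 0.072), which is 2.42-fold. The suffix of this probe set marks probes that can also match other transcripts, so that part of the signal may not belong to Scn9a, and this was not tested.

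Slc6a3 came next by ratio, on the dimmest signal in the mutants. Its probe set (1417415_at) read 45.9 and 34.4 on the NKO arrays against 16.6 and 13.97 on the control arrays. The genotypes did not overlap, but the mutant arrays differed from each other by 1.33-fold, the widest spread among the members. The ratio of the means, 40.1 over 15.3, was 2.63, and pairs of single arrays ranged from 2.07 to 3.28. With the offset, the difference was 0.84 log2 units (standard error 0.12), which is 1.79-fold.

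P2rx3 had the smallest ratio. Its probe set (1458396_at) read 90.8 and 80.3 on the NKO arrays against 49.96 and 42.5 on the control arrays. Each mutant sample was again above each control sample, and arrays of a genotype differed by 1.18-fold in the controls and 1.13-fold in the mutants. The mean intensity was 46.2 in the controls and 85.6 in the mutants, a ratio of 1.85 that ranged from 1.61 to 2.14 between single arrays. With the offset, the difference was 0.71 log2 units (standard error 0.098), which is 1.63-fold.

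**Figure D1:**
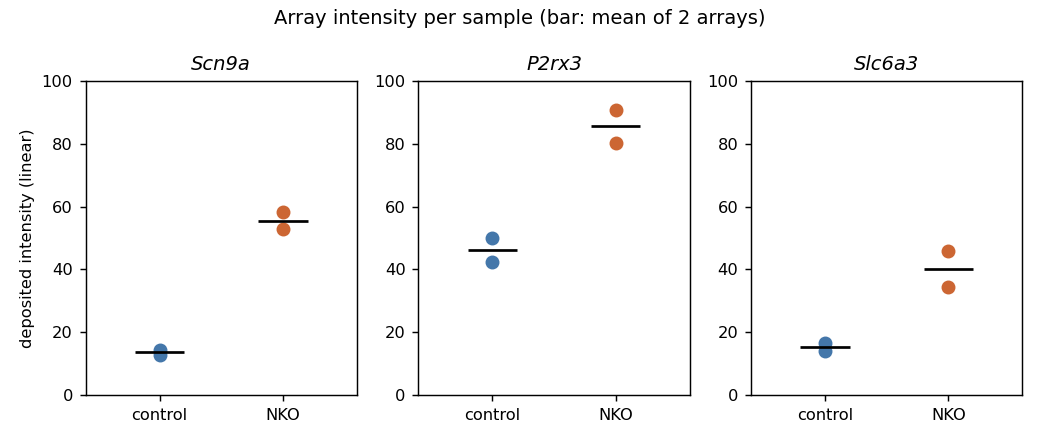
Deposited intensity (linear axis) of the probe sets of Scn9a, P2rx3 and Slc6a3 in the 2 control and 2 NKO arrays, 1 point per array, with a bar at the mean. Both NKO points lie above both control points for each gene, from 52.9 against 14.4 for Scn9a to 34.4 against 16.6 for Slc6a3 at their closest.

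All 3 genes were dim. In the controls, Scn9a lay at the 13.4th and 15.4th percentile of all probe sets of its array, Slc6a3 at the 17.8th and 15.0th, and P2rx3 at the 40.8th and 37.5th. In the NKO mutants, Scn9a reached the 43.7th and 42.4th percentile and Slc6a3 the 38.7th and 32.9th, still below the middle of the array, while P2rx3 reached the 52.7th and 51.0th. A percentile describes the brightness of a probe set on its array and not the abundance of the transcript, and detection calls were not used here. Whether the control signal of Scn9a and Slc6a3 lies above background can therefore not be read from these values.

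Ratios of such dim probe sets depend on the offset. The fold of Scn9a was 4.09 with no offset, 3.88 with an offset of 1 and 1.54 with an offset of 64. For Slc6a3 these values were 2.61, 2.51 and 1.31, and for P2rx3, which was less dim, 1.85, 1.84 and 1.36. The order of the members changed with it: Slc6a3 was above P2rx3 at an offset of 16 or less and below it at 64, while Scn9a led at each offset tried. At whole offsets, the fold first fell below 1.5 at 71 for Scn9a, at 35 for Slc6a3 and at 33 for P2rx3.

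**Figure D2:**
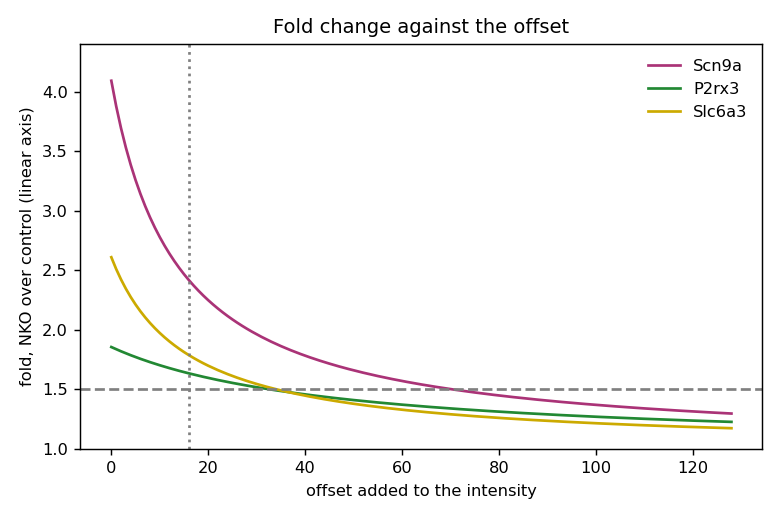
Fold of NKO over control (linear axis) for Scn9a, P2rx3 and Slc6a3 as the offset added to every intensity is raised from 0, with the offset of 16 dotted and the 1.5-fold cutoff dashed. The curve of Scn9a falls from 4.09 to 2.42 at the offset of 16, and those of Slc6a3 and P2rx3 cross just under the cutoff.

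Between the members, the log2 fold change of Scn9a exceeded that of Slc6a3 by 0.44 (combined standard error 0.14) and that of P2rx3 by 0.57 (combined standard error 0.12) at the offset of 16. Slc6a3 and P2rx3 differed by 0.13 (combined standard error 0.16). With no offset these differences were 0.65, 1.14 and 0.49, in the same order of pairs. The combined error takes the genes as independent, though they were read on the same arrays, so that it gives no test. The first NKO sample was the brighter of the mutant samples for all 3 genes, as it was for 56.1% of all probe sets.

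On the whole array, a signal in both NKO arrays above both controls was common and was seen in 24.2% of the 45037 probe sets, the 3 members among them. A fold of at least 1.5 was reached by 0.286% of the probe sets in the upward direction with the offset of 16 and by 4.6% with no offset, and all 3 members reached it on both scales. Because the names rest on this same contrast, nothing is read from these shares. The probe sets dimmer than the median held most of the large ratios: with no offset, 2022 of these 22519 were at least 1.5-fold higher, against 49 of the 22518 brighter ones. Of all probe sets, 322 had a larger ratio of means than Scn9a, 564 than Slc6a3 and 1117 than P2rx3. With the offset of 16 those numbers were 5, 18 and 49.

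**Figure D3:**
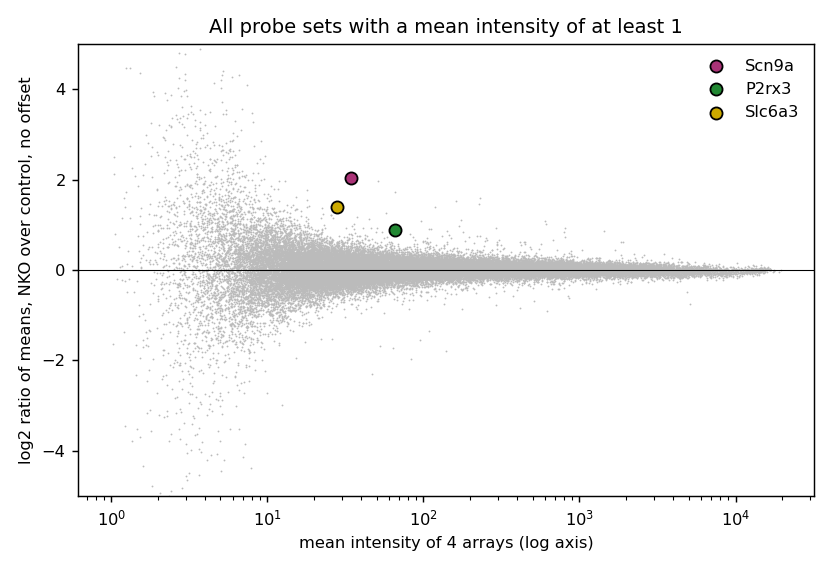
Log2 ratio of the mean intensities, NKO over control with no offset, against the mean intensity of the 4 arrays (log axis) for 44817 probe sets, with Scn9a, P2rx3 and Slc6a3 marked. The cloud is widest at the dim end, and the members lie to the right of its widest stretch, at ratios of 4.09, 1.85 and 2.63. Not drawn are 34 probe sets with a mean under 1 and 186 beyond the vertical axis.

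In limma over all probe sets, 0 of 45037 (0.0%) had an adjusted p under 0.05, with 3972 at an unadjusted p under 0.05. When its variance was allowed to follow intensity and moderated robustly (the robust fit), limma passed 520 (1.15%).

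The relatives of the members gave little to set beside them. In the 7 lists of sodium channels, purinergic receptors, transmitter transporters, catecholamine handling, potassium channels, calcium and TRP channels and other ligand-gated channels, 6 of 169 genes had a probe set with their name alone, and the members were 3 of these. None of the other 15 sodium channel genes, 14 purinergic receptor genes, 26 transporter genes or 20 genes of catecholamine synthesis and handling had one, nor did any of the 35 potassium and HCN channel or 25 calcium and TRP channel genes. These were not analysed here, since an unnamed gene may have differed less or not at all, or may not be on the array. Among them are Th and Dbh, the enzymes that mark catecholamine cells, and Slc18a2, the vesicular transporter that loads dopamine.

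The 3 remaining channel genes of these lists were all receptors for amino acid transmitters. They were lower in both NKO arrays than in both controls, a pattern of 18.4% of all probe sets. Gria1, an AMPA glutamate receptor subunit, read 66.5 and 66.8 on the NKO arrays against 85.8 and 106.6 on the control arrays, a log2 fold change of −0.43 (standard error 0.11). Grik1, a kainate receptor subunit, was at −0.40 (standard error 0.080), and Glrb, the β subunit of the glycine receptor, at −0.31 (standard error 0.063). None reached 1.5-fold lower, a mark passed by 0.158% of all probe sets. The robust fit passed 2 of the 3 and 1.15% of all probe sets, against 0 in limma without the trend. The names of these 3 genes rest on the same contrast, so that nothing is read from these shares. A second Glrb probe set had the same direction.

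Genes outside these lists were found by the words channel, cholinergic receptor, solute carrier or transporter in their deposited description, after their values were seen. Other receptors were not searched for. Kcna7, a voltage-gated potassium channel, was at −0.30 (standard error 0.081), Catsper2, a channel subunit of sperm, at −0.34 (standard error 0.065) and Clcc1, named for a chloride channel, at −0.24 (standard error 0.069). All 3 were lower in both NKO arrays than in both control arrays. Chrna9, a nicotinic acetylcholine receptor subunit, went the other way, at 0.31 (standard error 0.14). Its NKO arrays read 244.2 and 220.9 against 162.6 and 209.9 on the control arrays. Of the genes described as transporters or solute carriers, Atp8a1, Mmgt1, Slc44a4 and Slc4a1 were higher, and Slc35b2, Slc10a3 and Slc5a4a were lower.

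The named pan-neuronal genes were higher beside the members. Of 35 pan-neuronal genes 16 were named, and on both NKO arrays all 16 were above both controls, 7 by at least 1.5-fold and with a median log2 fold change of 0.49, against 0.013 over all probe sets. Over all probe sets, 24.2% had both NKO arrays above both controls and 0.286% were at least 1.5-fold higher. Their summed intensity lay between 4556 and 4574 in the controls and between 6928 and 7123 in the mutants. Limma without a trend passed 0 of the 16 and the robust fit passed 13, against 1.15% of all probe sets. The highest were Sncg, the synuclein of peripheral neurons, at 1.48 (standard error 0.064), and Stmn3, a microtubule regulator of neurons, at 1.36 (standard error 0.064). These genes too were named because they had differed on the same arrays, so that nothing is read from their counts, median or shares. All 16 kept this direction with no offset, with offsets of 1 and 64, and after median centring or quantile normalization. The number of higher genes in each of the other lists named here was likewise the same under these settings. An offset cannot reverse a gene whose arrays do not overlap, and centring moved the median of all probe sets only to −0.0081. No conclusion is therefore drawn from the kept directions.

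Of 29 sensory neuron genes 3 were named, Scn9a, P2rx3 and Pou4f1, and all 3 were higher. Scn9a and P2rx3 are members, so that this list adds only Pou4f1. Its name rests on the same contrast, and 24.2% of all probe sets had both NKO arrays above both controls. Nothing is therefore read from this count. Pou4f1, a POU domain transcription factor of sensory neurons, read 82.3 and 79.5 on the NKO arrays against 33.7 and 34.0 on the control arrays, a log2 fold change of 0.96 (standard error 0.058). Of 21 sympathetic and autonomic genes only Gata2, a zinc finger factor that acts in sympathetic and blood cell precursors, was named, at 0.31 (standard error 0.074).

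Among 25 neurogenic transcription factor genes 6 were named, 5 higher and 1 lower. They too were named on this contrast, so that nothing is read from these counts. The highest was Pou4f1, followed by Neurod1, a basic helix-loop-helix factor, at 0.77 (standard error 0.059), and the lowest was Zic1, a zinc finger factor of the dorsal neural tube and its crest, at −0.73 (standard error 0.13). None of 30 genes of synaptic vesicles and transmitter release was named. The only named glial gene of 16 was Fabp7, a fatty acid binding protein of radial glia and glial precursors, at 1.05 (standard error 0.066).

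**Figure D4:**
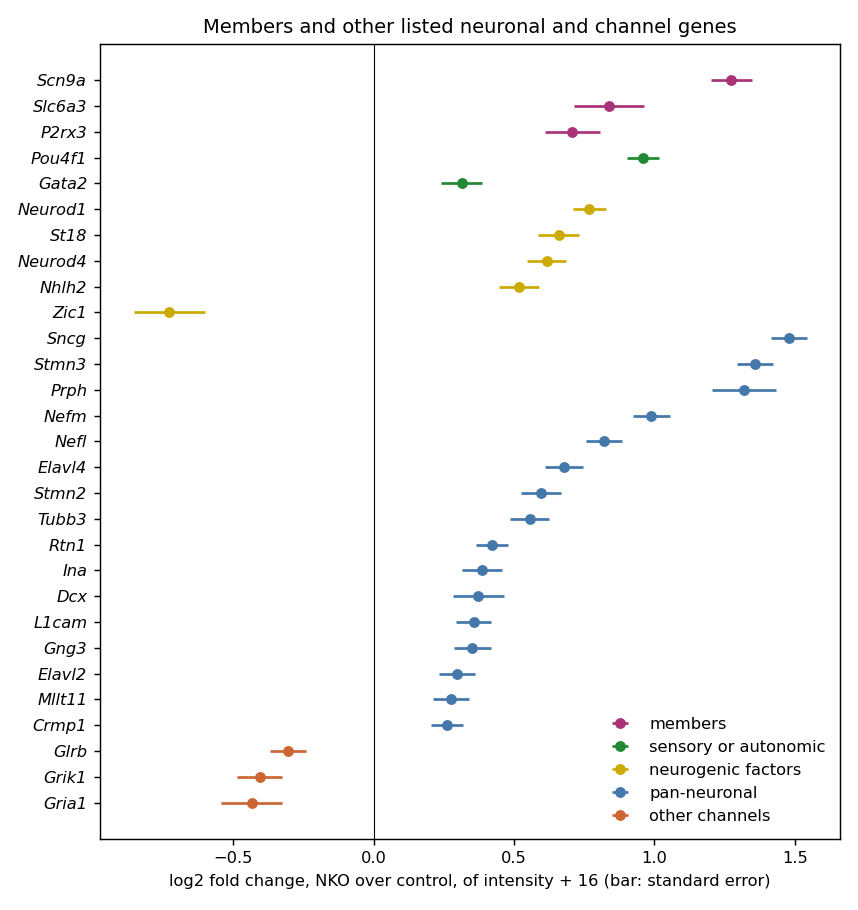
Log2 fold change of NKO over control on the log2(intensity + 16) scale with its standard error for Scn9a, Slc6a3 and P2rx3 and for the named genes of the neuronal and ligand-gated channel lists. Scn9a at 1.27 lies beside Prph, Stmn3 and Sncg, while Gria1, Grik1 and Glrb lie between −0.43 and −0.31.

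The named genes with the most similar profile over the 4 arrays were sought by the root mean square difference of log2 values taken from the control mean. For Scn9a they were Stmn3 (0.065), Prph, an intermediate filament of peripheral neurons (0.076), and Taf10, a subunit of the general transcription factor TFIID (0.096). For P2rx3 they were Ctsc, a lysosomal protease (0.034), Srgn, a proteoglycan of blood cell granules (0.037), and Odf1, a sperm tail protein (0.041). For Slc6a3 they were Mpo, the myeloperoxidase of myeloid cells (0.078), Neurod1 by its dimmer named probe set (0.085), and Lin28, an RNA-binding protein of early cells (0.085). Likeness was measured over every probe set that names 1 gene, so that this Neurod1 probe set is not the brighter one whose value is given above. The named genes were selected for a difference by genotype, so that any of them with the same fold change gives a small difference.

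Markers of other cells moved with the genotype as well. All 11 named genes of 20 platelet and megakaryocyte genes were higher, with a summed intensity of 2624 to 2652 in the controls and 4488 to 4630 in the mutants, led by Ppbp at 0.90 (standard error 0.058) and Pf4 at 0.86 (standard error 0.061). All 12 named muscle genes of 29 were lower, with sums of 12682 to 12760 against 10164 to 10245, led by Nppa at −0.67 (standard error 0.063) and Myog at −0.56 (standard error 0.060). All 3 named endoderm and liver genes of 15, Afp, Pth and Alb, were lower, with sums of 395.8 to 423.2 against 125.4 to 148.2. In every list, genes were named because they had differed on the same arrays, so that nothing is read from these counts. None of the named markers was at 0 on any array. Their part in the values of Scn9a, P2rx3 and Slc6a3 was not tested. In RNA of pooled cells, more cells of a type and more RNA per cell cannot be told apart.

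Of 29 genes of the neural crest and its mesenchyme, 6 were named. Prrx1, a homeobox factor of mesenchyme, was bright on all 4 arrays, reading 4717 and 4698 for the NKO mutants and 4072 and 3910 for the controls. Pax3, a paired box factor of early crest, was at 0.44 (standard error 0.080), Msx2, a homeobox factor of arch mesenchyme, at 0.28 (standard error 0.057), and Meox1, a homeobox factor of somites, at −0.36 (standard error 0.070). The crest markers Sox10, Foxd3 and Tfap2a carry no name here and were not analysed, so that the labelled cell type was checked on these genes only. Tnnt2, of the muscle list, was of similar brightness to Prrx1. It read 3562 and 3743 for the NKO mutants and 4289 and 4252 for the controls. The brightness of Prrx1 does not by itself identify the cells.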

How the data were processed

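RNA of sorted NCCs at E10.5 was measured on 4 arrays, 2 per genotype. The deposited values are normalized intensity on a linear scale. Affymetrix Expression Console is named in the submitters' processing notes, and its algorithm and background step were not stated in the sources used. For the members, the average of both control arrays was within 0.0321% of the control intensity in the authors' deposited comparison table. That table holds 766 probe sets selected by VAMPIRE at a Bonferroni-corrected 0.05, of which 603 name a single gene, and it gave the gene names. Its fold changes and p-values were not used.

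Of 45101 probe sets, 64 Affymetrix controls were left out. Genotypes were compared on log2(intensity + 16) with lmFit and eBayes of limma 3.58.1 under R 4.3.3 with no trend. The p-values were adjusted over all probe sets by Benjamini-Hochberg. This step was tested on simulated data, with changes placed only in probe sets brighter than the median. The simulation therefore does not cover the dim range of the members. The methods' 1.5-fold cutoff was applied to the same values. Standard errors are those of limma. Python 3.11.15 with pandas 2.3.3, numpy 2.4.6 and matplotlib 3.10.9 served for the remaining steps. A gene with several named probe sets was represented by the brightest. The labels do not say that the replicates came from separate litters, so that the errors may be partly technical.

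The members and gene lists were chosen with earlier results of these data known. Named were the members, Ilk, every named gene of the channel and transporter lists, the 2 genes of largest change in each direction of the other lists and the 3 nearest profiles per member. Channel, cholinergic receptor and transporter genes outside the lists, Prrx1, Tnnt2 and Alb were added after their values were seen. Some items are not reported here. Alternatives were no offset, offsets of 1 and 64, median centring, quantile normalization, an intensity trend, dim probe sets left out, the methods' t-test, a replicate block and leaving out each array.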

Additional observations from a re-analysis of the deposited data

How the results depend on the processing

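The log2 fold changes of the members moved most with the offset. They were 2.03 with no offset, 1.96 with an offset of 1 and 0.62 with an offset of 64 for Scn9a, 0.89, 0.88 and 0.44 for P2rx3, and 1.38, 1.33 and 0.39 for Slc6a3. An offset by its construction pulls ratios of dim probe sets towards 1. Without the first NKO sample the log2 fold change of Slc6a3 was 0.69, and without the second 0.99. The number of probe sets at least 1.5-fold apart was 200, against 4034 with no offset, 3335 with an offset of 1, 36 with an offset of 64, 51 among those brighter than the median and 395 to 646 with any 1 of the arrays left out. Limma passed 0 probe sets, 520 with an intensity trend and robust moderation and 52 with dim probe sets left out. The methods' t-test passed 3973 at their threshold, 125 of them at least 1.5-fold apart and 0 after Benjamini-Hochberg adjustment. The cause of these changes was not tested. The deviations of same-numbered arrays had a correlation of −0.033 over probe sets. Most probe sets are dim, so that this value cannot show whether same-numbered samples were paired. A replicate block cannot move a fold change in this balanced design (1.27, 0.71 and 0.84). With the block the standard error was 0.083 for Scn9a, 0.066 for P2rx3 and 0.082 for Slc6a3. Without it these were 0.072, 0.098 and 0.12. Limma with the block again passed 0. The count of 7 pan-neuronal genes at least 1.5-fold higher, with alternatives chosen after seeing the data, was between 5 and 8.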
